A study of Saccharomyces cerevisiae with 21 samples.

Results

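Budding yeast strains that carry genetic variation across the genome were grown as pools in medium with 0.2 µM 5-FC, and selection on a reporter of protein interaction was compared with growth without that selection. The samples were chosen by their titles, which name 5-FC with MTX or 5-FC without MTX, and they are 4 of the 21 libraries of the series. The 5-FC cultures with 10 µg/mL methotrexate (MTX) gave 2 libraries, replicates A and B, and so did the 5-FC cultures without MTX. All 4 were grown for 96 h from an in-house strain library of Saccharomyces cerevisiae in minimal medium, with a passage every 24 h, and genomic DNA was sequenced at the chromosomal barcode of each strain. The labels do not say whether replicates A and B came from separate cultures, so p-values measure only the spread between libraries. That spread was estimated over all 20 libraries of 96 h in the series and not from the 5-FC libraries alone. The other libraries of the series were cultures of the same library without drug, with fluconazole, with metformin or with trifluoperazine, each with and without MTX, and 1 library from time 0.

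In a dihydrofolate reductase complementation assay, a pair of proteins carries the complementary fragments of a dihydrofolate reductase that MTX does not inhibit well, and the enzyme is rebuilt when the proteins come together. Cells need dihydrofolate reductase to regenerate the folate cofactors of thymidylate and purine synthesis. MTX blocks the cell's own enzyme, so that growth comes to depend on the rebuilt reporter. 5-FC is the usual abbreviation of 5-fluorocytosine, an antifungal that yeast converts into fluorinated nucleotides which enter RNA and block thymidylate synthase. The labels give only the abbreviation.

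Each library held counts for 361 strain barcodes in 62 pools. Protein pairs, made from 44 proteins, give 61 of the pools their names, and 1 is a reference pool named as holding no protein interaction. The labels do not state which reporter that reference pool carries, if any. The 5-FC libraries with MTX held 8587410 and 9875141 reads, and those without MTX held 7925013 and 8584078 reads. The shallowest pool of a 5-FC library held 42106 reads. The unit of analysis was the strain barcode in a given pool, named a feature, and the value was its percentage of that pool's reads. Shares of a pool add up to the whole, so a strain's share also falls when another strain of its pool expands. Of 22382 features, 15974 entered the tests because they averaged 10 reads or more across all 20 libraries of 96 h, and 110 had no read in any 5-FC library. With MTX, 3094 and 3101 features had no read, against 920 and 866 without MTX.

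Selection with MTX narrowed nearly every pool in 5-FC. The effective number of strains, the exponential of the Shannon entropy of the strain shares, counts how many equally frequent strains would give the observed diversity. Its median over the 62 pools was 20.3 and 21.3 in the libraries with MTX and 54.8 and 57.6 in those without MTX. Both libraries with MTX lay below both libraries without MTX in all 62 pools. The fall passed the test in 59 pools (95.2%, limma on log2 values, adjusted p under 0.05), and no pool widened. The exceptions were the pools of ERG11 (YHR007C) with TPO4 (YOR273C), adjusted p = 0.066, PMC1 (YGL006W) with CTR2 (YHR175W), adjusted p = 0.055, and ERV25 (YML012W) with EMP47 (YFL048C), adjusted p = 0.054, all by limma.

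**Figure D1:**
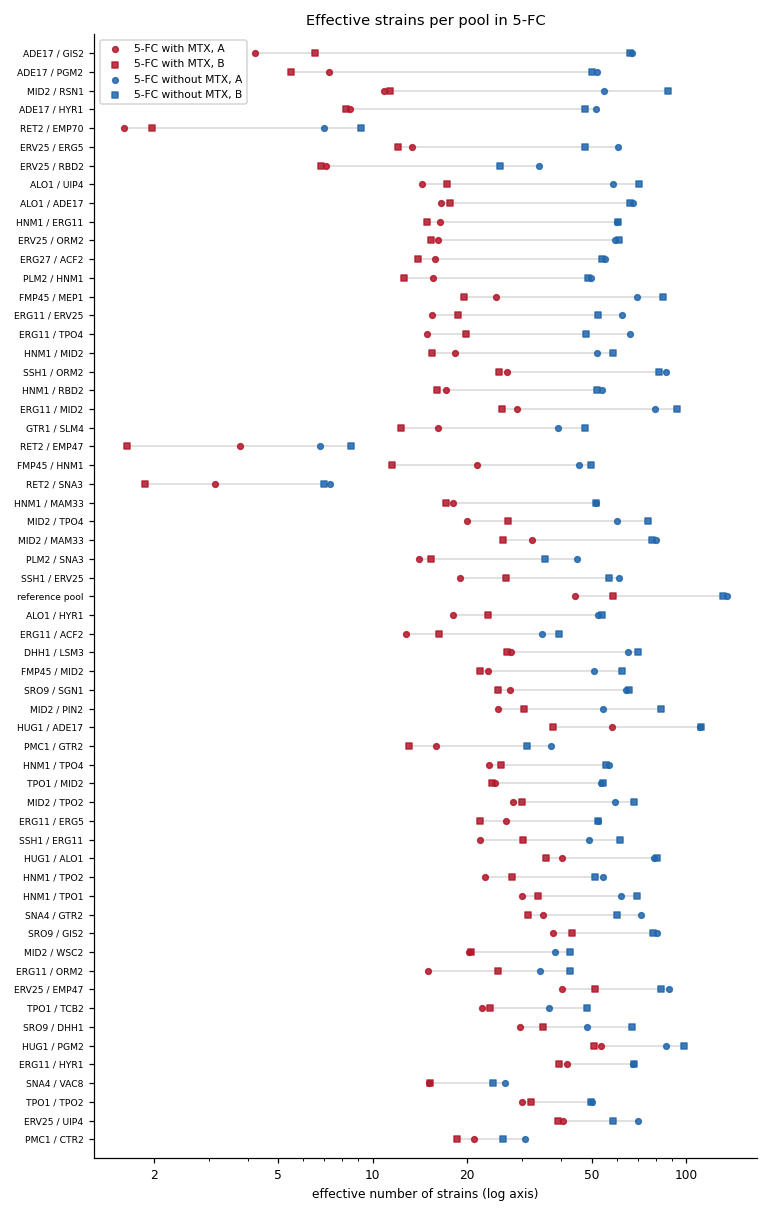
Effective number of strains (log axis) in 59 of the 62 pools, with 1 point per library, for 5-FC with MTX (red) and 5-FC without MTX (blue); circles are replicate A and squares replicate B. Pools are ordered from the largest fall with MTX at the top to the smallest at the bottom, and in each pool both red points lie left of both blue points.

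The strongest narrowing was seen in pools with ADE17 (YMR120C), an enzyme of late purine synthesis that takes a formyl group from a folate cofactor. Paired with GIS2 (YNL255C), a zinc finger protein that binds RNA, it had 4.21 and 6.53 effective strains with MTX and 67.4 and 66.2 without MTX. Its log2 change of −3.67 ± 0.22 (standard error, limma, adjusted p = 1.2e-08) was the largest of the 62. With PGM2 (YMR105C), a phosphoglucomutase, ADE17 had 7.23 and 5.48 effective strains with MTX and 51.9 and 50.0 without MTX (log2 change −3.02, adjusted p = 3.6e-07, limma). With HYR1 (YIR037W), a thiol peroxidase that senses hydrogen peroxide, it had 8.44 and 8.23 with MTX and 51.6 and 47.7 without MTX (log2 change −2.57, adjusted p = 2.5e-06, limma). Not every ADE17 pool narrowed this far. HUG1 (YML058W-A) is an inhibitor of ribonucleotide reductase, and its pool with ADE17 had 57.9 and 37.6 effective strains with MTX and 111 and 112 without MTX (log2 change −1.25).

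Also among the 5 largest falls was that of a cell wall pair. MID2 (YLR332W), a sensor of cell wall stress, with RSN1 (YMR266W), a membrane protein of unclear function, had 10.8 and 11.3 with MTX and 54.7 and 87.7 without MTX. Replicates without MTX were further apart in that pool than in the ADE17 pools just named, and its standard error was 0.57 on the log2 scale. At the other end, PMC1, a calcium pump of the vacuole, with CTR2, a copper transporter of the vacuole, had 21.0 and 18.6 effective strains with MTX and 30.5 and 26.1 without MTX, a log2 change of −0.51. The further small falls were those of ERV25, a p24 protein of vesicles that leave the endoplasmic reticulum, with UIP4 (YPL186C) at −0.68, TPO1 (YLL028W) with TPO2 (YGR138C) at −0.69, SNA4 (YDL123W) with VAC8 (YEL013W) at −0.73 and ERG11 with HYR1 at −0.75, all on the log2 scale. Each of these 4 passed limma's test, with the highest adjusted p of 0.041 for ERV25 with UIP4. That call was lost without any 1 of the 4 libraries (adjusted p 0.054 to 0.17, limma), and that of TPO1 with TPO2 without 3 of them (0.051 to 0.067).

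On the scale of pool shares, most called features were lower with MTX. In the test of single features, 7937 of 15974 were called (49.7%, at an adjusted p under 0.05 by edgeR's quasi-likelihood test), 1199 higher (7.51%) and 6738 lower (42.2%) with MTX. The number called higher depended on single libraries: it was 543 and 516 without replicates A and B without MTX, and 773 and 818 without replicates A and B with MTX. In 7918 of the called features both libraries with MTX lay beyond both without MTX. This separation was counted among called features only and not over all 15974 tested. A call largely requires it, so it adds no support to the calls. The median log2 fold change over all tested features was −1.41 on the scale of pool shares. TMM scaling, which sets the middle of the features near no change, placed this median at −0.30 over whole libraries and −0.39 within each pool. Higher features were 15.1% of the calls by pool shares, 31.5% by TMM over whole libraries and 35.7% by TMM within each pool. Directions of single features are therefore relative to the rest of their pool.

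**Figure D2:**
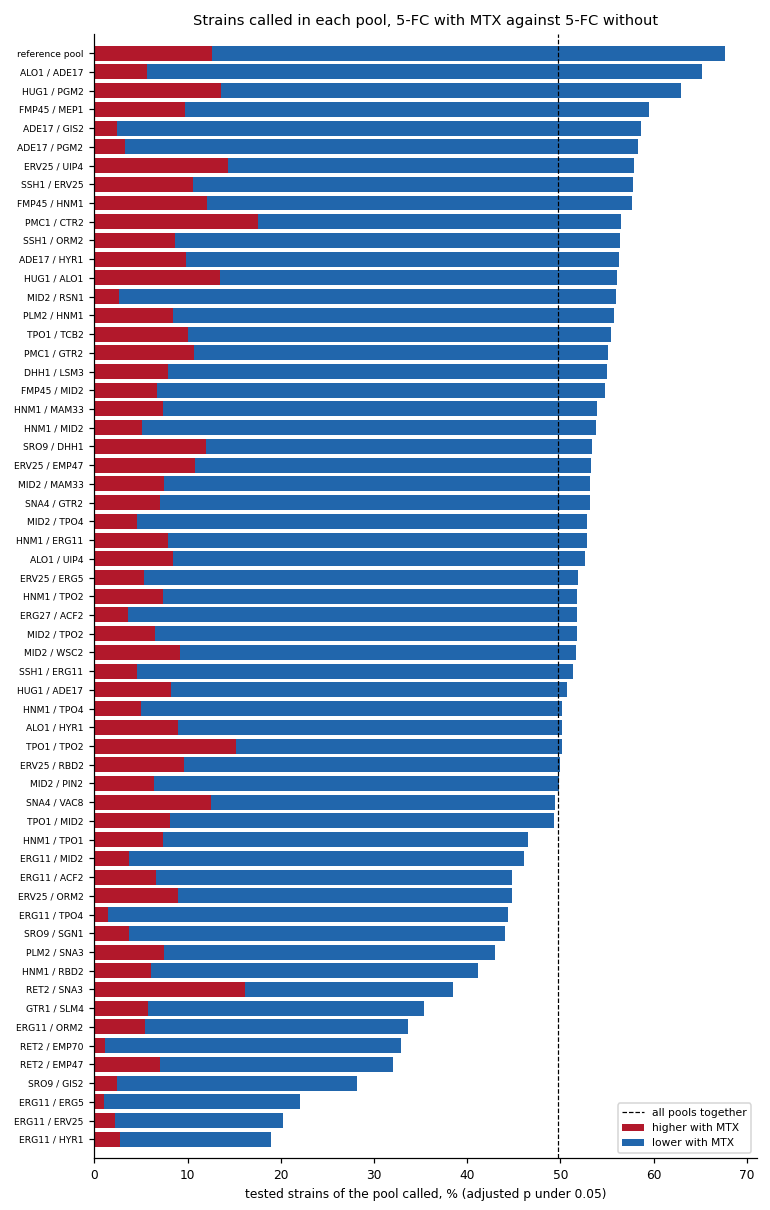
Share of the tested strains of each of 59 pools that were called in 5-FC with MTX against 5-FC without MTX, in percent, split into strains higher with MTX (red) and lower with MTX (blue). The dashed line marks 49.7%, the share over all pools; the reference pool is at the top and 3 pools with ERG11 are at the bottom.

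The reference pool had the largest share of called strains, with 220 of 325 (67.7%), 41 higher and 179 lower. It was also the most diverse pool without MTX, at 135 and 131 effective strains, and had 44.4 and 58.4 with MTX. Next came ALO1 (YML086C), an oxidase of the synthesis of an ascorbate analog, with ADE17, where 161 of 247 strains were called (65.2%) and 147 were lower. HUG1 with PGM2 followed with 180 of 286 (62.9%), then FMP45 (YDL222C), a membrane protein of plasma membrane domains, with MEP1 (YGR121C), an ammonium permease, with 172 of 289 (59.5%), and ADE17 with GIS2 with 118 of 201 (58.7%). The median pool had 51.8% of its tested strains called.

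Pools with ERG11, the lanosterol demethylase that azole antifungals inhibit, filled the low end. With HYR1, 54 of 285 strains were called (18.9%), with ERV25 55 of 271 (20.3%), and with ERG5 (YMR015C), a sterol desaturase, 61 of 277 (22.0%). SRO9 (YCL037C), a protein with a La motif that binds RNA, with GIS2 had 80 of 284 (28.2%), and RET2 (YFR051C), a coatomer subunit, with EMP47, a lectin of the early secretory pathway, had 50 of 156 (32.1%). In the 3 ERG11 pools the fitted changes were compressed: their standard deviation across strains was 1.85 with HYR1, 1.73 with ERG5 and 2.11 with ERV25 on the log2 scale, against a median of 3.51 over the 62 pools. The correlation between replicates was also lower there. A correlation depends on the spread of the changes too, so a low value does not by itself show larger disagreement between replicates. Across strains of a pool, the MTX effect of replicate A correlated with that of replicate B at r = 0.70 for ERG11 with HYR1, 0.698 with ERG5 and 0.643 with ERV25, the 3 lowest of all pools, against a median of 0.900. At the high end were 0.955 in the reference pool and 0.945 for HUG1 with PGM2. These are correlations across strains of the same libraries, which are not independent replicates. Depth was uneven in ERG11 with HYR1, at 611994 and 53498 reads with MTX and 81080 and 80653 without MTX, while ERG11 with ERG5 held 90497 and 73159 with MTX and 100976 and 114360 without MTX. What part depth had in these counts was not tested.

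The same strains tended to move in many pools. Differences among strains accounted for 69.5% of the variance of the MTX effect over tested features, pools for 3.45% and the remainder for 27.1%, while replicate error came to 6.72%. Counted over pools, 45 strains were called higher in at least 10 pools and 167 were called lower in at least 10, and 0 strains were in both sets. At 5 pools or more, 74 were higher, 220 lower and 9 in both.

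**Figure D3:**
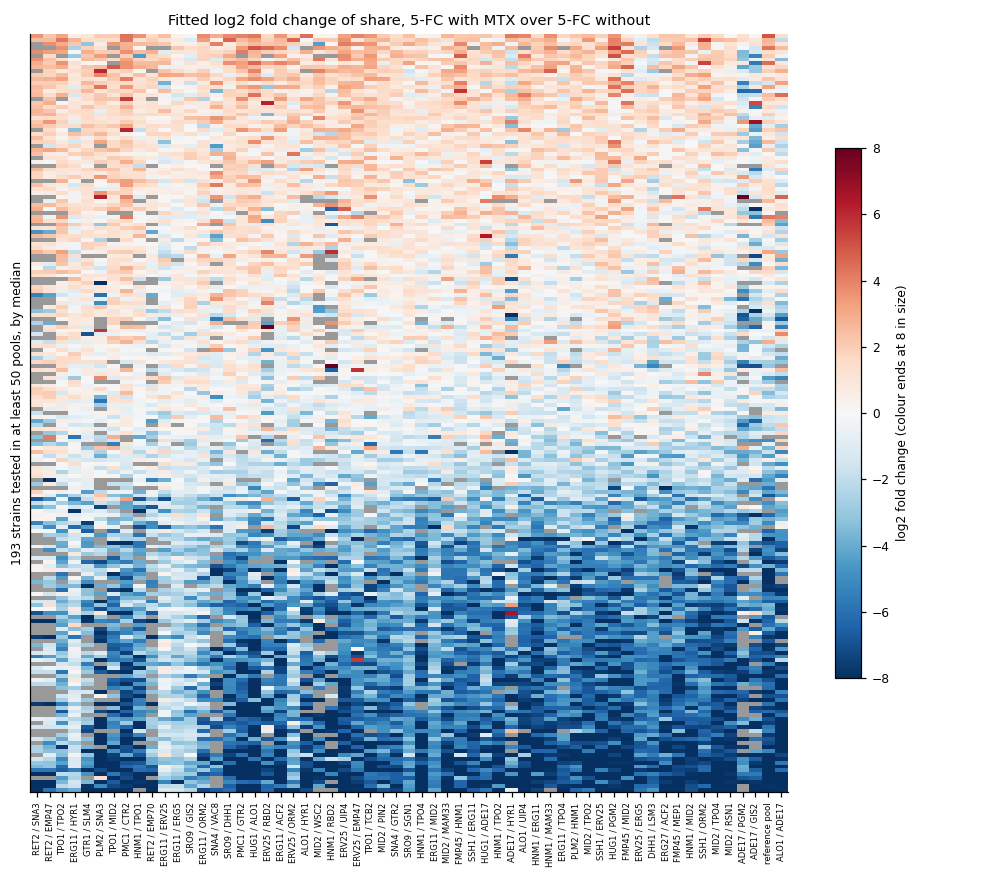
Fitted log2 fold change of the share, 5-FC with MTX over 5-FC without MTX, for the 193 strains tested in at least 50 pools (lines, ordered by their median) in 59 of the 62 pools (columns, ordered by their median); grey marks untested features and the colour ends at 8 in size. Of these strains, 76 had a median above 0 and 117 a median below 0, and colour within a line is mostly of 1 direction across the columns.

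Strain 838 dominated the pools under selection. Summed over the pools it held 26.9% and 30.0% of all reads with MTX and 11.8% and 9.72% without MTX. The fitted log2 fold change of these sums was 2.77 ± 0.25 with TMM scaling (SE, adjusted p = 4.1e-07 by edgeR's quasi-likelihood test) and 1.41 with scaling by total reads, which is the scale of the shares (adjusted p = 5.7e-05, edgeR). By mean share it was the most frequent strain in 45 of 62 pools with MTX and in 23 without MTX. Its share was called higher in 31 pools and lower in 2. In the median pool it held 28.6% with MTX and 10.8% without MTX. The exceptions were ERV25 with RBD2 (YPL246C), a rhomboid protease of the Golgi, where 838 held 1.29% and 2.02% with MTX and 18.4% and 21.8% without MTX, and ADE17 with PGM2, where it held 1.60% and 1.25% with MTX and 6.94% and 5.04% without MTX. Strain 673 was the most frequent strain of 23 pools without MTX and of 4 with MTX. The leading strain was the same in replicates A and B in 56 pools with MTX and in 43 without MTX.

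Other strains rose across many pools at lower shares. Strain 1069 was higher in 41 of 62 pools, the most of any strain, and lower in 2. It held 2.67% and 3.06% of all reads with MTX and 0.757% and 0.590% without MTX. Strain 983 was higher in 32 pools and lower in 0, strain 734 higher in 31 and lower in 1, and strain 713 higher in 28 of 61 and lower in 2. Against these stood strains that fell almost everywhere. Strain 476 was lower in 61 of 62 pools, strains 798 and 819 in 60 of 62, strain 705 in 59 of 60 and strain 843 in 59 of 62, and none of these 5 was higher in any pool. Strain 476 held 0.0792% and 0.0486% of all reads with MTX and 2.83% and 2.74% without MTX. Another set depended on the pool: strain 931 was higher in 10 pools and lower in 6, strain 809 higher in 7 and lower in 6, and strain 616 higher in 6 and lower in 6. The fitted change of 931 ran from −6.32 to 8.53 on the log2 scale over 59 pools.

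On reads summed per strain, 290 of 361 strains were called (80.3%, at an adjusted p under 0.05 by edgeR's quasi-likelihood test), 145 higher (40.2%) and 145 lower (40.2%) under TMM scaling. Scaling by total reads gave 246 calls with 61 higher (24.8% of the calls in place of 50.0%). The median strain changed by 0.07 on the log2 scale under TMM and by −1.30 under scaling by total reads, so that the fitted TMM values given next lie above the log2 ratios of the printed shares. Strain 252 rose most, to 0.146% and 0.0822% of all reads with MTX against 0.00734% and 0.00799% without MTX. Its fitted log2 fold change was 5.26 ± 0.74 under TMM (SE, adjusted p = 1.1e-05, edgeR) and 3.90 under scaling by total reads (adjusted p = 0.00017, edgeR). Most of those reads came from a single pool: in the reference pool it held 6.23% and 8.81% with MTX and 0.0400% and 0.0463% without MTX, and its median share over the pools was 0.00216% with MTX and 0.00300% without MTX. Averaged over the pools in place of summed, its change was 0.12 on the log2 scale and not called (limma, adjusted p = 0.75). The next in size were strain 999 at 4.85, strain 36 at 4.60, strain 931 at 4.42 and strain 359 at 4.18, on the log2 scale under TMM. Strain 999 was higher in 24 of the 32 pools where it was tested and lower in 0. Averaged over the pools, strains 36 and 931 were not called either (limma, adjusted p = 0.92 and 0.79). The largest falls were those of strain 819 at −5.43, strain 296 at −5.38, strain 992 at −4.92, strain 596 at −4.65 and strain 133 at −4.54. Strain 819 held 0.00975% and 0.0156% of all reads with MTX and 1.54% and 1.30% without MTX.

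In some pools the leading strain with MTX had been rare without MTX. In ERV25 with RBD2, strain 931 held 59.1% and 54.4% of the pool with MTX and 0.133% and 0.175% without MTX, from 101109 and 71485 reads against 163 and 201. The rise was 8.53 ± 0.77 in log2 units (SE, edgeR's quasi-likelihood test, adjusted p = 4.3e-07). That the groups did not overlap was a condition for naming this feature. In the reference pool the same strain held 0.115% and 0.0504% with MTX and 0.0568% and 0.0795% without MTX. Its MTX effect in the ERV25 and RBD2 pool exceeded that in the reference pool by 8.24 ± 1.19 on the log2 scale (adjusted p = 1.7e-05, edgeR).

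The leading strains with MTX differed among the ADE17 pools, and strains rose there from low and from moderate shares. Paired with GIS2, strain 760 held 45.3% and 41.1% with MTX and 0.420% and 0.331% without MTX (log2 fold change 6.85 ± 0.72, adjusted p = 8.7e-07, edgeR's quasi-likelihood test). Paired with PGM2, strain 538 held 36.5% and 38.6% with MTX and 3.76% and 3.40% without MTX (3.39, adjusted p = 0.0015, edgeR), and strain 421 held 34.6% and 38.1% with MTX and 0.103% and 0.130% without MTX (8.29 ± 0.83, adjusted p = 6.8e-07, edgeR). With HYR1, strain 690, already among the frequent strains without MTX, held 50.8% and 52.9% with MTX and 8.58% and 5.95% without MTX (2.83, adjusted p = 0.0013, edgeR). With ALO1, strain 535 held 18.8% and 23.4% with MTX and 1.08% and 0.785% without MTX (4.50, adjusted p = 0.00052, edgeR), while strain 838 held 23.6% and 8.31% there with MTX and so led in replicate A. None of the groups compared for these 5 strains overlapped. For strains 760 and 421 this was a condition for naming them, and strains 538, 690 and 535 were named for their lead with MTX. The lack of overlap therefore adds no support to these rises. In HUG1 with ADE17 strain 598 did not lead and stood at 3.86% and 7.98% with MTX and 0.0869% and 0.0540% without MTX (6.39 ± 1.03, adjusted p = 4.6e-05, edgeR). Against the reference pool the effect was larger by 4.96 for strain 760 (adjusted p = 0.00019), by 7.29 for strain 421 (adjusted p = 2.9e-05) and by 7.89 for strain 598 (adjusted p = 6.5e-05), all on the log2 scale by edgeR. For strain 538 the difference from the reference pool was 2.92 (adjusted p = 0.035, edgeR), and for strains 690 and 535 it was not called (adjusted p = 0.32 and 0.25, edgeR). Strain 760 was called higher in 19 of 61 other pools and lower in 0, so its rise was not limited to GIS2 with ADE17. Strains 535, 690 and 538 were called higher in 18 of 61, 12 of 57 and 11 of 61 other pools, and lower in 0, 2 and 1. Strain 421 was also called higher in ALO1 with ADE17 (4.73, adjusted p = 0.0019, edgeR).

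**Figure D4:**
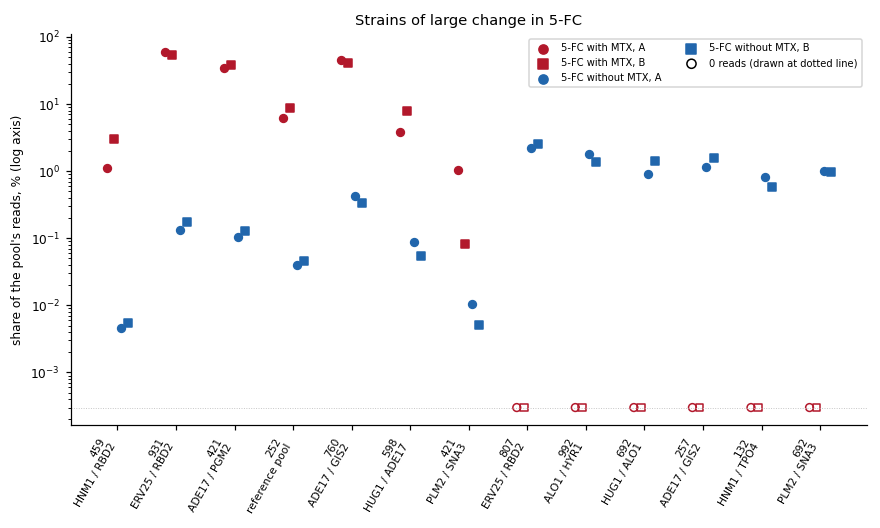
Share of the pool's reads (percent, log axis) of 13 strains in the pool named below each (among the features named, the 7 largest called rises with at least 20 reads in sum without MTX and the 6 largest losses to 0 reads), with 1 point per library, 5-FC with MTX in red and 5-FC without MTX in blue. The 7 strains on the left were higher with MTX, up to 59.1% for strain 931, and the 6 on the right had 0 reads in both libraries with MTX (open points on the dotted line).

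The choline transporter HNM1 (YGL077C) with RBD2 was shared with MTX by strains 523 and 409, each the most frequent in 1 replicate. Strain 523 held 23.6% and 21.0% with MTX against 1.92% and 1.65% without MTX (log2 fold change 3.64, adjusted p = 0.00056, edgeR's quasi-likelihood test), and strain 409 held 20.9% and 23.7% with MTX against 2.33% and 4.40% without MTX (2.73, adjusted p = 0.0010, edgeR). Strain 459 remained a minor strain of this pool. It held 1.10% and 2.98% with MTX and 0.00459% and 0.00540% without MTX, from 1836 and 7600 reads against 4 and 16, and had the largest fitted rise of all features at 8.62 ± 1.98 (standard error, adjusted p = 0.0011, edgeR). Strain 409 had the highest mean share with MTX in 3 other pools: MID2 with MAM33 (YIL070C), an acidic protein of the mitochondrial matrix, MID2 with WSC2 (YNL283C), a further cell wall sensor, and PLM2 (YDR501W), a transcription factor with a forkhead-associated domain, with SNA3 (YJL151C), an adaptor of vacuolar sorting. It held 13.8% and 18.8% with MTX against 2.46% and 1.85% without MTX in the first of these, where strain 838, at 15.7% and 13.6% with MTX, led in replicate A. In the last of these pools strain 421 held 1.05% and 0.0830% with MTX and 0.0105% and 0.00502% without MTX (6.24, adjusted p = 0.0027, edgeR), and without replicate A with MTX it was not called (3.46, adjusted p = 0.073, edgeR). Strain 850 in ERV25 with EMP47 held 12.0% and 5.85% with MTX and 0.217% and 0.149% without MTX (5.61 ± 0.92, adjusted p = 5.5e-05, edgeR).

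The 3 pools with RET2 were nearly single strains under selection. Strain 756 held 93.8% and 90.4% with MTX and 56.5% and 50.7% without MTX when RET2 was paired with EMP70 (YLR083C), an endosomal membrane protein. With SNA3 it held 82.1% and 91.1% with MTX and 58.5% and 56.4% without MTX, and with EMP47 78.5% and 92.9% with MTX and 57.5% and 53.2% without MTX. Libraries did not overlap in any of the 3 pools, but none of the 3 rises was called (adjusted p = 0.057, 0.17 and 0.14, edgeR's quasi-likelihood test, in that order). At time 0 the strain had held 87.0%, 88.8% and 36.3% of these pools in the same order, in a library without a replicate. Effective strains in RET2 with EMP70 were 1.61 and 1.97 with MTX and 6.98 and 9.17 without MTX, and no pool had a lower mean with MTX. A strain that makes up most of a pool cannot rise by much on this scale.

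Losses reached the detection limit. The largest fitted fall was that of strain 807 in ERV25 with RBD2, which had 0 reads in both libraries with MTX and held 2.18% and 2.51%, from 2671 and 2889 reads, without MTX. Taking 3 reads per library as the floor, that is at least 1161-fold lower (adjusted p = 3.5e-07, edgeR's quasi-likelihood test). Strain 992 in ALO1 with HYR1 had 0 reads with MTX and held 1.83% and 1.37% without MTX, at least 528-fold lower (adjusted p = 4.4e-07, edgeR). Strain 692 had 0 reads with MTX both in HUG1 with ALO1, against 0.905% and 1.42% without MTX (at least 471-fold lower), and in PLM2 with SNA3, against 1.02% and 0.968% without MTX (at least 316-fold lower). Strain 257 in ADE17 with GIS2 was at least 397-fold lower, at 0 reads with MTX and 1.17% and 1.55% without MTX. In HNM1 with TPO4, a polyamine exporter, strain 132 was at least 381-fold lower, at 0 reads with MTX and 0.827% and 0.579% without MTX. Strain 299 in PLM2 with SNA3 had 0 and 1 reads with MTX and held 2.15% and 3.24%, from 2039 and 9684 reads, without MTX. With reads and pool totals summed over the replicates its share was lower by a ratio of 13446, with a 95% counting interval of 2413 to 531140 (adjusted p = 9.1e-06, edgeR). Since PCR copies of 1 molecule are counted apart, the floors and intervals cover counting error only.

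Several of the largest rises started from almost no reads. Strain 999 in HNM1 with MAM33 had 26 and 256 reads with MTX and 1 and 0 without MTX, a ratio of 239 in reads over pool totals, both summed over the replicates, with a 95% counting interval of 42.5 to 9460. Strain 412 in ALO1 with UIP4, a protein of the nuclear envelope and endoplasmic reticulum, had 475 and 283 reads with MTX and 0 and 3 without MTX, a ratio of 195 (interval 66.5 to 949). Strain 359 in ADE17 with GIS2 had 13 and 25 reads with MTX and 0 in both libraries without MTX, at least 6.62-fold higher. Such rises passed edgeR's test (adjusted p = 5.1e-05, 0.0019 and 0.0021 in that order), and their size is poorly fixed by these counts.

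Grouped by the proteins of each pair, the share of called strains stayed near the overall 49.7% in most groups. A pair counts in every group that holds 1 of its proteins, and these counts are descriptions without a test of the group. The 5 ADE17 pools had the highest share, with 643 of 1114 tested strains called (57.7%), 68 higher and 575 lower. The 3 HUG1 pools had 474 of 836 (56.7%), and the 12 pools of cell wall sensors and membrane domain proteins (MID2, WSC2, FMP45 and PIN2, YOR104W) had 1776 of 3346 (53.1%). The 6 pools of vacuolar membrane proteins (PMC1, CTR2, SNA3 and SNA4) had 677 of 1331 (50.9%), and the 9 pools of the polyamine transporters TPO1, TPO2 and TPO4 1132 of 2250 (50.3%). The 6 pools of the antioxidant enzymes ALO1 and HYR1 had 760 of 1545 (49.2%), and the 3 pools of the EGO complex, a vacuolar regulator of growth signalling (GTR1, YML121W, GTR2, YGR163W, and SLM4, YBR077C), had 388 of 795 (48.8%). Lower shares were those of 15 secretory pairs (SSH1, YBR283C, a translocon subunit, ERV25, RET2 and RBD2), with 1722 of 3636 (47.4%), of 5 pairs of RNA-binding proteins (SRO9, GIS2 and DHH1, YDL160C, an RNA helicase of mRNA decay), with 650 of 1379 (47.1%), and of 11 pairs of the ergosterol enzymes ERG11 and ERG5, with 1219 of 3079 (39.6%). Of the pairs in none of these groups, ERG27 (YLR100W), a sterol keto reductase, with ACF2 (YLR144C), an intracellular glucanase, had 128 of 247 (51.8%), PLM2 with HNM1 146 of 262 (55.7%) and HNM1 with MAM33 131 of 243 (53.9%).

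Within the ergosterol group the pools ran from 18.9% to 52.8% called. The high end was HNM1 with ERG11, where 141 of 267 strains were called and effective strains were 16.4 and 14.9 with MTX and 60.3 and 60.8 without MTX. ERG11 with ORM2 (YLR350W), a regulator of sphingolipid synthesis, lay between, with 93 of 276 called (33.7%), and strain 838 held 46.9% and 37.8% there with MTX and 34.3% and 26.9% without MTX, a change that was not called (adjusted p = 0.56, edgeR's quasi-likelihood test). ERG11 with MID2 narrowed by −1.65 in log2 effective strains, which was the group median, and had 46.1% of its strains called. ERG11 with ACF2 had 122 of 272 called (44.9%) and SSH1 with ERG11 147 of 286 (51.4%). The low counts of calls thus belonged to some ERG11 pairs and not to every pair with this enzyme.

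Secretory pairs differed by partner as well. ERV25 with UIP4 and SSH1 with ERV25 had 57.9% and 57.8% of their strains called, while ERV25 with ORM2 had 44.9%, ERV25 with ERG5 51.9% and ERV25 with EMP47 53.3%. In the last of these, 130 strains were lower and 33 higher, and effective strains were 40.2 and 51.1 with MTX and 88.3 and 83.2 without MTX. SSH1 with ORM2 gave 56.4%. Strain 838 held 30.0% and 32.3% there with MTX against 4.76% and 4.48% without MTX (log2 fold change 2.75, adjusted p = 0.0003, edgeR's quasi-likelihood test).

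The leading strain changed with MTX in 35 of the 62 pools. Among transporter pairs, TPO1 with TCB2 (YNL087W), a tether of the endoplasmic reticulum to the plasma membrane, was 1 of these. Strain 476 held 0.0311% and 0.00405% with MTX and 29.0% and 16.4% without MTX (log2 fold change −10.35, adjusted p = 8.1e-07, edgeR's quasi-likelihood test), and strain 838 held 38.8% and 32.3% with MTX and 6.40% and 5.19% without MTX. TPO1 with TPO2 had 37 strains higher and 85 lower of 243, with a median log2 fold change of −0.25. HNM1 with TPO1 lost strain 475, at 0.0380% and 0.0239% with MTX against 13.2% and 14.7% without MTX (−8.82, adjusted p = 8.7e-07, edgeR), and strain 1069 had the highest mean share with MTX, at 14.6% and 16.2% against 3.07% and 2.30% without MTX. Strain 838, at 17.9% and 12.6% with MTX, led replicate A of that pool. The pairs of MID2 with TPO2 and TPO4 were close to each other, with 51.8% and 52.8% called and log2 changes of effective strains of −1.14 and −1.53.

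Pairs of RNA-binding and vacuolar proteins, ADE17 with GIS2 aside, narrowed by between −0.51 and −1.61 on the log2 scale in the pools named next. SRO9 with DHH1 had 29.6 and 34.9 effective strains with MTX and 48.2 and 67.1 without MTX, and SRO9 with SGN1 (YIR001C), a cytoplasmic RNA-binding protein, had 27.4 and 25.1 with MTX and 64.5 and 65.7 without MTX. DHH1 with LSM3 (YLR438C-A), a subunit of Lsm complexes, had 160 of 291 strains called (55.0%). SNA4 with VAC8, an anchor protein of the vacuole membrane, kept strain 673 in the lead, at 34.3% and 33.3% with MTX and 31.1% and 29.6% without MTX, a difference that was not called (adjusted p = 0.79, edgeR's quasi-likelihood test). PMC1 with CTR2 had the most strains called higher of any pool, 46 of 262. PMC1 with GTR2, a Rag-type GTPase, had 29 higher and 121 lower of 272, and GTR1 with SLM4 had 13 higher and 67 lower of 226 (35.4% called).

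Each pair was also set against the reference pool, strain by strain, as the MTX effect in 5-FC in the pool minus that in the reference pool. Of 15142 features tested in both pools, 2741 were called (18.1%, at an adjusted p under 0.05 by edgeR's quasi-likelihood test), 1981 higher (13.1%) and 760 lower (5.02%). The reference counts enter the test of every pair. The count was between 780 and 1836 when 1 library was left out, and 780, with 423 higher and 357 lower, was reached without replicate A with MTX. A fit of only the 5-FC libraries gave 4805. ERG11 with HYR1 had the most calls, with 128 of 274 (46.7%), followed by ERG11 with ERG5 (40.4%), ERG11 with ERV25 (38.8%), SRO9 with GIS2 (38.7%) and RET2 with SNA3 (36.0%). In each of these pools most calls were higher than in the reference pool: 113 of 128, 98 of 109, 91 of 102, 94 of 106 and 38 of 45. Higher here is relative to the reference pool, where 179 strains were called lower with MTX. In ERG11 with HYR1, ERG5 and ERV25 only 8, 3 and 6 strains were called higher with MTX within the pool itself. Over all pairs this was also the direction of most calls, 1981 of 2741. The fewest calls were in FMP45 with MEP1, with 18 of 282 (6.38%), ERG11 with ACF2 (6.77%) and ERG27 with ACF2 (7.5%). Few calls do not show that pools were alike. The median difference of ERG11 with ACF2 from the reference pool was 0.94 on the log2 scale, against 0.77 in the median pair.

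Large differences from the reference pool ran in both directions. Some strains fell to few or 0 reads in the reference pool but not in the pools named next. Strain 850 had a share of 0.00216% and 0.00369% with MTX and 0.886% and 0.568% without MTX in the reference pool, where ERV25 with EMP47 gave the rise described above, and the difference was 13.61 ± 1.30 on the log2 scale (adjusted p = 2.0e-08, edgeR's quasi-likelihood test). Strain 692 in ERG11 with ERV25 held 0.0632% and 0.0637% with MTX and 0.0575% and 0.0390% without MTX. In the reference pool it had 0 reads with MTX and 0.287% and 0.306% without MTX (adjusted p of the difference 7.9e-06, edgeR). Strains 1027 and 807 in the same ERG11 pool and strain 803 in ERG11 with HYR1 showed the same order (adjusted p = 0.00016, 0.00012 and 7.9e-06, edgeR). Such losses were not particular to the reference pool. Strain 692 also had 0 reads with MTX in HUG1 with ALO1 and in PLM2 with SNA3, and strain 807 in ERV25 with RBD2. In the other direction, strain 252 held 0.00155% and 0.00112% with MTX and 0.119% and 0.168% without MTX in SSH1 with ERV25, against its rise in the reference pool (difference −14.00 ± 2.11, adjusted p = 3.0e-05, edgeR). It also fell in ADE17 with PGM2, at 3 and 0 reads with MTX and 57 and 77 without MTX (adjusted p of the difference 4.5e-05, edgeR). Strain 240 in ERV25 with EMP47, strain 943 in ADE17 with GIS2 and strain 323 in MID2 with PIN2, a protein of the trans-Golgi network, were lower than in the reference pool as well (adjusted p = 0.00012, 5.0e-06 and 0.0017, edgeR). The last of these was not called without replicate A with MTX (adjusted p = 0.051, edgeR).

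The MTX effect in 5-FC was next set against the MTX effect in cultures without drug. Across features the fitted effects in 5-FC and without drug correlated at r = 0.884 over 15974 features, which share strains and pools and are no replicates. Only 15 features were called (0.0939%, at an adjusted p under 0.05 by edgeR's quasi-likelihood test), 14 higher (0.0876%) and 1 lower (0.00626%) in 5-FC, and 1615 had an unadjusted p under 0.05. The median difference over all features was 0.43 on the log2 scale. Of the 15, 9 lay in ERV25 with RBD2. DESeq2 gave 255 and a fit of only the libraries compared gave 178, while TMM scaling over whole libraries gave 2 and within each pool 5. Leaving out 1 of the 8 libraries gave 2 to 15 calls: 2 without replicate A or without replicate B of 5-FC without MTX, 8 without replicate A of no drug with MTX, and 4 and 3 without replicates A and B of no drug without MTX. Counts near 15 did not hold the same features: of the 15 calls without replicate B of no drug with MTX, 8 higher and 7 lower, only 3 were among the 15 of the full set, and of the 13 calls without replicate A and the 13 without replicate B of 5-FC with MTX, 5 and 8 were. The adjusted p of each of the 15 is from the full set of libraries.

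In ERV25 with RBD2, barcode 599_ref1 held 3.95% and 2.03% with MTX and 0.417% and 0.461% without MTX in 5-FC, and 0.0129% and 0.00681% with MTX and 2.22% and 1.21% without MTX in no drug. The difference of the effects was 10.22 ± 0.95 on the log2 scale (adjusted p = 1.2e-05, edgeR's quasi-likelihood test). Barcode 599_ref2 behaved alike, with a difference of 10.04 ± 1.10 (adjusted p = 0.00015, edgeR). What these endings of barcode names stand for is not given in the sources used here. Strains 335, 364, 375, 709, 841, 89 and 996 were the other 7, with differences of 5.36 to 11.27 (adjusted p 0.0020 to 0.047, edgeR). All 9 held more of the pool with MTX in both 5-FC libraries than in both libraries without drug. They were picked by a test of these same values, so this adds no support to the calls. Strain 931 held 80.9% and 91.8% of this pool with MTX without drug, against 59.1% and 54.4% in 5-FC with MTX, and its own effect did not differ by the test (0.85 ± 0.78, adjusted p = 0.79, edgeR). The part of its share in the other 9 values was not tested.

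**Figure D5:**
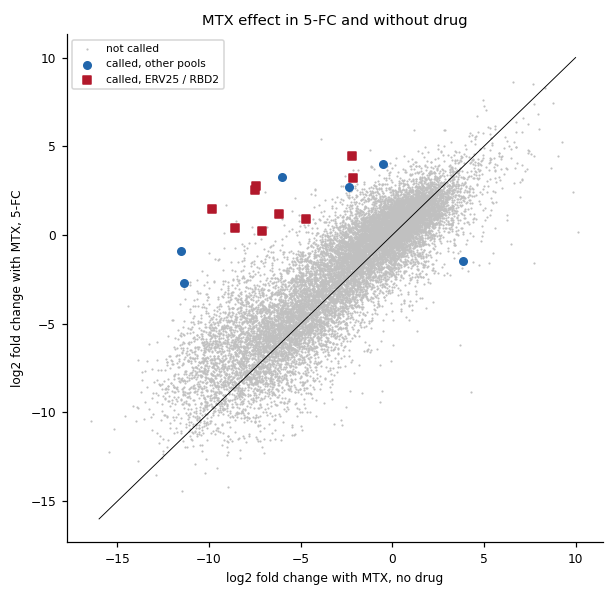
Fitted log2 fold change with MTX in 5-FC (vertical) against that without drug (horizontal) for the 15974 tested features, with a line of equal effect. The 9 called features of ERV25 with RBD2 (red squares) and 5 of the 6 other called features (blue) lie above the line, and 1 lies below it.

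Of the 6 called features outside that pool, 5 were higher in 5-FC. Strain 409 in HNM1 with RBD2 held 20.9% and 23.7% with MTX and 2.33% and 4.40% without MTX in 5-FC, against 0.707% and 0.245% with MTX and 2.68% and 2.17% without MTX in no drug (difference 5.12 ± 0.88, adjusted p = 0.029, edgeR's quasi-likelihood test). Strain 841 in ALO1 with ADE17 held 2.27% and 3.39% with MTX and 0.187% and 0.171% without MTX in 5-FC, against 0.153% and 0.208% with MTX and 0.273% and 0.239% without MTX in no drug (4.48 ± 0.86, adjusted p = 0.045, edgeR). Strain 271 in HUG1 with ADE17 held 0.343% and 0.110% with MTX and 0.451% and 0.398% without MTX in 5-FC, against 0 reads with MTX and 0.422% and 0.304% without MTX in no drug (adjusted p = 0.029, edgeR). Strain 775 in MID2 with WSC2 and barcode 599_ref1 in PMC1 with CTR2 rested on 3 and 7 and on 49 and 13 reads in 5-FC with MTX (adjusted p = 0.037 and 0.032, edgeR). The lower feature was strain 1020 in MID2 with WSC2, at 0.282% and 0.0788% with MTX and 0.465% and 0.543% without MTX in 5-FC, against 2.88% and 8.61% with MTX and 0.467% and 0.338% without MTX in no drug (−5.32 ± 0.93, adjusted p = 0.030, edgeR).

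Narrowing differed between 5-FC and no drug in 6 of 62 pools (9.68%, limma, adjusted p under 0.05), and in all 6 it was weaker in 5-FC. RET2 with SNA3 had 3.14 and 1.88 effective strains with MTX and 7.29 and 6.99 without MTX in 5-FC, against 1.45 and 1.35 with MTX and 11.9 and 29.1 without MTX in no drug (difference 2.18 ± 0.57 on the log2 scale, adjusted p = 0.018, limma). ERV25 with RBD2 had 7.11 and 6.83 with MTX in 5-FC and 2.44 and 1.67 with MTX in no drug (difference 1.84 ± 0.41, adjusted p = 0.013, limma). For TPO1 with TCB2 the difference was 1.77, for ERG11 with ACF2 1.66 and for HNM1 with MAM33 0.93 (adjusted p 0.013 to 0.016, limma). The pool of TPO1 with TCB2 held only 4225 reads in replicate B without drug or MTX. There were 0 such calls without that library, 1 without replicate A of 5-FC without MTX, 3 without replicate B of no drug with MTX, and 15 in a fit of only the libraries compared. In the set of 0 calls, 10 pools had an unadjusted p under 0.05.

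On summed reads, 5 of 361 strains differed in their MTX effect from no drug (1.39%, at an adjusted p under 0.05 by edgeR's quasi-likelihood test), 3 higher (0.831%) and 2 lower (0.554%) in 5-FC. Strains 476 and 857 fell with MTX in both media and less in 5-FC. Their log2 fold changes under TMM were −4.08 and −3.68 in 5-FC against −6.53 and −6.73 in no drug (adjusted p of the difference 0.038 and 0.012, edgeR). Scaling by total reads gave −5.45 and −5.08 in 5-FC. Strain 842 rose by 2.16 in 5-FC under TMM, and by 0.78 under scaling by total reads, against 3.83 in no drug under TMM (adjusted p of the difference 0.019, edgeR). Barcode 599_ref2 had a fitted change of −0.16 in 5-FC under TMM (adjusted p = 0.76, edgeR) against −4.11 in no drug (adjusted p of the difference 0.0072, edgeR). The size of its change in 5-FC depended on the scale: its share of all reads was 0.0769% and 0.0931% with MTX and 0.238% and 0.256% without MTX, and it was lower in 37 of 56 pools and higher in 1. Scaling by total reads gave −1.54 (adjusted p = 0.0092, edgeR) and the average over pools −3.06 (adjusted p = 1.2e-10, limma). Barcode 40_2 changed by 1.08 in 5-FC under TMM, and by −0.32 under scaling by total reads, against 6.5 in no drug under TMM (adjusted p of the difference 4.5e-05, edgeR), and was tested in only 2 pools. Leaving out 1 library gave 1 to 13 calls: 1 without replicate A or without replicate B of 5-FC without MTX and without replicate A of no drug with MTX, 2 without replicate B of 5-FC with MTX and without replicate A of no drug without MTX, 3 without replicate A of 5-FC with MTX and without replicate B of no drug without MTX, and 13 without replicate B of no drug with MTX.

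The MTX effect in 5-FC was last set against the mean of the effects in the other 4 media, which include fluconazole, metformin and trifluoperazine. Here 64 of 15974 features were called (0.401%, at an adjusted p under 0.05 by edgeR's quasi-likelihood test), 50 higher (0.313%) and 14 lower (0.0876%), in 35 pools. Of these, 6 lay in ERV25 with RBD2, and 6 of the 64 were among the 15 called against no drug. These sets of calls share the 5-FC and the no drug libraries. The largest positive differences belonged to barcodes 599_ref2 and 599_ref1 in ERV25 with RBD2, strain 128 in PLM2 with SNA3, strain 412 in FMP45 with MEP1 and strain 850 in ERV25 with EMP47 (adjusted p 0.00018 to 0.036, edgeR). In 5-FC itself, strain 128 overlapped in that pool, at 0.148% and 0.0203% with MTX and 0.0358% and 0.0321% without MTX. Its effect there was not called (1.34, adjusted p = 0.19, edgeR). Strain 412 rested on 48 and 100 reads with MTX and 5 and 2 without MTX in 5-FC. The largest negative ones were those of strain 188 in SNA4 with GTR2, strain 984 in HNM1 with TPO2, strain 784 in ALO1 with UIP4, strain 128 in ERV25 with ERG5 and strain 475 in ADE17 with PGM2 (adjusted p 0.0026 to 0.022, edgeR). Strain 475 held 0.0262% and 0.0408% with MTX and 6.99% and 7.59% without MTX there. Its fall was not particular to 5-FC: the fitted MTX effect was −7.76 in 5-FC and −6.94 in no drug, on the log2 scale. These 2 effects of strain 475 did not differ by the test (difference −0.83, adjusted p = 0.84, edgeR). Strains 188, 984 and 784 had 0 reads in both 5-FC libraries with MTX in the pools just named, so the size of their differences is not fixed. Their effects did not differ from those in no drug by the test either (adjusted p 0.21 to 0.24, edgeR). TMM scaling over whole libraries left 3 calls. Leaving out 1 of the 5-FC libraries gave 18 and 16 calls without replicates A and B with MTX, of which 11 and 12 were among the 64, and 3 and 5 without replicates A and B without MTX, all among the 64.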

How the data were processed

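The authors deposited raw read counts of each strain barcode in each pool for every library, and per the labels' protocols barcodes were amplified from genomic DNA in 2 PCR steps without molecular identifiers. Aligner and genome build are not given in the sources used here. The members and the lists of proteins were chosen with earlier results of these data known. Counts were fitted with edgeR 4.0.16 (glmQLFit and glmQLFTest, R 4.3.3) over the 20 libraries of 96 h, with the log of each pool's total as offset and a mean of at least 10 reads per feature. Reads summed per strain were fitted with TMM scaling, and log2 effective strains with limma 3.58.1. P-values were adjusted by Benjamini and Hochberg over each whole table. Differences between media and from the reference pool were contrasts of the same kind of fit. The fits were tested on simulated data.

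The alternatives were other scalings, DESeq2 1.42.0, other filters, a fit of only the libraries compared, a replicate block, another diversity index, reads thinned to equal depth, and each library left out. Pool totals without the most frequent strain and the no drug libraries left out were added after seeing the data. Features were named as the 10 largest separated changes in each direction, the extremes of the pools with most and fewest calls and of each protein group, and all calls of a difference where there were 15 or fewer, otherwise the 10 largest in each direction. Strains were named by how many pools they rose or fell in and by their summed reads, and pools by the extremes of each measure. Leading strains of further pools were named after their values were seen. Locus tags come from the RefSeq R64 gene table, in which all 44 proteins were found. The time 0 library has no replicate and served only for starting shares. Pools of 1 protein are not reported here, although they stayed in the fits and in the counts over all pools.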

Additional observations from a re-analysis of the deposited data

Results flagged for a closer look

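The MTX effect differed between 5-FC and no drug in 15 features, 5 strains and 6 pools, by edgeR's or limma's test of the difference itself. The values are the effect in 5-FC minus that in no drug, in log2 units.

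Of the features, 9 belong to ERV25 with RBD2: strain 335 at 8.95, strain 364 at 11.27, strain 375 at 7.33, barcode 599_ref1 at 10.22, barcode 599_ref2 at 10.04, strain 709 at 7.40, strain 841 at 5.57, strain 89 at 5.36 and strain 996 at 6.62. The other 6 were strain 841 in ALO1 with ADE17 at 4.48, strain 409 in HNM1 with RBD2 at 5.12, strain 271 in HUG1 with ADE17 at 10.64, strain 775 in MID2 with WSC2 at 8.67, barcode 599_ref1 in PMC1 with CTR2 at 9.32 and, lower in 5-FC, strain 1020 in MID2 with WSC2 at −5.32. Fitted differences of strains without reads in a group, such as 271, 364 and 775 in no drug with MTX, depend on the prior count and have no fixed size.

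On summed reads the differences were −5.42 for barcode 40_2, 2.45 for strain 476, 3.96 for barcode 599_ref2, −1.67 for strain 842 and 3.05 for strain 857. In effective strains, for the 5 pools given here, they were 1.66 for ERG11 with ACF2, 1.84 for ERV25 with RBD2, 0.93 for HNM1 with MAM33, 2.18 for RET2 with SNA3 and 1.77 for TPO1 with TCB2.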

How the results depend on the processing

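The total counts of calls in 5-FC stayed within 1.5 times under the alternatives run, but the counts of higher calls did not. Feature calls ran from 5459 with a mean of at least 50 reads to 9362 in a fit of only the 5-FC libraries, strain calls from 246 to 304 and called pools from 52 to 62. Features called higher were 1199, against 516 to 818 when 1 library was left out, 1681 with pool totals without the most frequent strain, 2043 in the fit of only the 5-FC libraries, and 2134 and 3146 under TMM over whole libraries and within pools. Strains called higher were 145, against 61 with scaling by total reads and 56 by limma on shares averaged over pools. Of single strains, scaling by total reads turned the sign for barcode 40_2 (−0.32), strain 616 (−0.55) and strain 809 (−0.047), and barcode 599_ref2, not called at −0.16, was at 0.0019 with DESeq2 and between −0.36 and 0.023 when 1 library was left out, but at −1.54 with scaling by total reads (adjusted p = 0.0092, edgeR) and −3.06 averaged over pools (adjusted p = 1.2e-10, limma). The share of variance between strains was 62.2% with no filter, 74.2% with a mean of at least 50 reads, 65.9% with a pseudocount of 5, and 65.4% to 65.5% with 1 replicate.

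Differences between media depended on the processing, and the cause was not tested. Against no drug, DESeq2 called 255 features, TMM over whole libraries 2, TMM within pools 5, no filter 24 and the 8 libraries alone 178, and leaving out 1 library gave 2 to 15. Against the other 4 media DESeq2 called 613, TMM over whole libraries 3 and TMM within pools 37, and leaving out 1 library gave 3 to 18. For strains, DESeq2 called 14, limma 43 and the libraries compared alone 9, with 1 to 13 when 1 library was left out. For effective strains the libraries compared alone gave 15, and leaving out 1 library 0 to 7, where at 0 calls by limma 10 pools had an unadjusted p under 0.05. Against the reference pool, a mean of at least 50 reads gave 1419 calls, the 5-FC libraries alone 4805, and leaving out 1 library 780 to 1836.

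Letters A and B were shared by all groups, but samples of the same letter did not deviate together (r of −0.12 to 0.088 over 45 pairs of groups, 0.0059 between 5-FC with and without MTX). With the replicate letter as a block, calls were 7799 features, 290 strains and 60 pools, 16 features, 4 strains and 6 pools against no drug, 43 features against the other media and 2649 against the reference pool. With 2 libraries a group and pools of 42106 reads at the least, changes of rare strains rest on few reads.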
